A study of Mus musculus with 24 samples.

Results

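MHC class II genes and their transcriptional coactivator Ciita were followed in organ of Corti (OC) explants across 4 treatments and 2 time points. The 7 genes were Cd74, Ciita, H2-Aa, H2-Ab1, H2-Eb1, H2-DMa and H2-DMb1. They were taken by symbol from a counts table of 24454 Entrez gene identifiers, and 1 row was found for each of the 7. OCs came from C57BL/6N mouse pups of both sexes at 5 days of age and were first kept for 24 h in medium with fetal calf serum and penicillin. For a further 6 or 24 h the medium then held no drug (CTRL), gentamicin at 50 μM (GM), pioglitazone at 10 μM (PIO) or the combination at these doses (PIO + GM). Gentamicin is an aminoglycoside antibiotic toxic to hair cells, and pioglitazone activates PPAR-γ, a nuclear receptor of lipid metabolism and inflammation. Each of the 8 groups had 3 libraries of total RNA, 24 in all, and 6 whole OCs were pooled for a library. A library is therefore a mixture of hair cells, supporting cells, vessels and resident immune cells, in which fewer cells of a type and less RNA per cell cannot be told apart. The labels number the libraries of a group as a triplicate without tying them to litters, so p-values measure the spread between these pools.

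MHC class II molecules are pairs of an α and a β chain that carry peptides from the endosomal pathway to the surface of antigen-presenting cells, where CD4+ T cells read them. H2-Aa and H2-Ab1 encode the α and β chain of the I-A molecule, and H2-Eb1 encodes the β chain of I-E, whose α chain gene H2-Ea is defective in the C57BL/6 haplotype. Cd74 is the invariant chain that blocks the peptide groove until the complex reaches the endosome, and H2-DMa and H2-DMb1 encode the H2-M molecule that then exchanges the remaining Cd74 fragment for a peptide. Ciita does not bind DNA itself but is recruited by the RFX complex, NF-Y and CREB at the promoters of these genes, and interferon-γ induces it. Macrophages of the cochlea are known to carry class II molecules.

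The set was chosen by measured values, since Cd74 and Ciita had been selected on their difference between PIO and CTRL at 24 h in earlier results of these data, and the other 5 genes were added as their class II partners. That difference, and those of the other comparisons that share an arm with it, are therefore given as a description without a test. In the tested comparisons, 0 of the 7 genes passed the test between treatments, where at most 1.32% of all tested genes did. H2-Ab1, H2-DMa and H2-DMb1 rose from 6 to 24 h both in GM and in PIO + GM. Of all tested genes, 12.5% rose in GM and 17.6% in PIO + GM. Some of the calls of members were lost under alternatives given below.

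The 5 H2 genes lie in the MHC on chromosome 17 of build GRCm38, in the order H2-DMa, H2-DMb1, H2-Ab1, H2-Aa and H2-Eb1. H2-DMa spans chr17:34119693-34139101, H2-DMb1 chr17:34153191-34160229, H2-Ab1 chr17:34263227-34269418, H2-Aa chr17:34282744-34287823 and H2-Eb1 chr17:34305867-34316674. Ciita lies at chr16:10480014-10531064, and Cd74 also lies outside the MHC. Class II promoters are known for an X box bound by the RFX complex, followed by a Y box bound by NF-Y. RefSeq promoter windows of 300 bases, 250 before and 50 after a start site, were at hand for 4 of the 7 genes. Of these, the upstream stretches of 100 bases around the Y box motif of 3 genes are shown, because they set side by side members with and without the searched X box letters. Capitals mark ATTGG, which is CCAAT on the other strand, and AGCAAC, the core of the X box. Each is written 5′ to 3′ on the strand of its gene.

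H2-Eb1, chr17:34305733-34305832, plus strand: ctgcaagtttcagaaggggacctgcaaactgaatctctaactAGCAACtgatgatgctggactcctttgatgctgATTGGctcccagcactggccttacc
H2-Aa, chr17:34287847-34287946, minus strand: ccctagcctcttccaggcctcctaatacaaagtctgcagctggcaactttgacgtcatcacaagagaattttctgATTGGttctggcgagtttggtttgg
H2-DMb1, chr17:34153055-34153154, plus strand: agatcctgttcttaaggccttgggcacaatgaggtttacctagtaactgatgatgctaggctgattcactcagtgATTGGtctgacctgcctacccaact

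The ATTGG of these stretches began 59 bases before the start site in H2-Eb1, 48 in H2-Aa and 61 in H2-DMb1. CCAAT, on either strand, was present in 37.4% of 32851 promoter windows of the same length. AGCAAC was present in 14.8%, and AGCAAC followed by ATTGG after 15 to 45 bases in 0.469%. The window of H2-Eb1 held all 3, and those of H2-Aa and H2-DMb1 held CCAAT only. H2-DMa had 2 listed start sites, of which the first had no match and the second had CCAAT only. The pair overlaps with both single motifs, and a window without a match only lacks these letters.

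The libraries had 7211357 to 15548856 counts on genes, with a median of 12538495. At these depths 3 counts correspond to 0.193 to 0.416 CPM (counts per library total, here without the TMM factors that scale all other CPM values), a floor that covers counting error only. Of the 24454 genes, 16317 passed the filter on low counts and were tested, all 7 members among them. Hair cell and supporting cell markers were present in every library, with 9 hair cell genes summing to 137 to 449 CPM and 6 supporting cell genes to 2417 to 7508 CPM. 3 libraries at 6 h stood apart in that their deviations fell with the GC content of transcripts (Spearman's rho -0.688 to -0.491 across genes, against -0.0957 to 0.388 in the others). They were PIO replicate 2 and PIO + GM replicates 2 and 3. Values without them are given, for part of the genes, beside the main tested results that include them. The ratios, correlations and descriptive values include them.

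The class II genes were expressed at low levels, and their medians over all libraries per gene length (RPKM, CPM divided by the gene length in kilobases) formed 2 tiers, which at 6 h did not hold for H2-Ab1 (median 1.52 RPKM, beside 1.12 for Cd74). H2-DMb1 had a median of 5.24 RPKM over the 24 libraries, H2-Ab1 of 6.12 and H2-DMa of 4.35. These medians were above those of 38.5%, 41.6% and 34.8% of tested genes. Cd74 followed with 1.156 RPKM, H2-Eb1 with 0.476, H2-Aa with 0.39 and Ciita with 0.205, the last being above 3.44% of tested genes. In counts, the upper tier had at least 10 (H2-Ab1), 25 (H2-DMa) and 46 (H2-DMb1) in every library. Cd74 had 5 to 73 counts, Ciita 2 to 27, H2-Eb1 4 to 33 and H2-Aa 0 to 26, so single libraries of the lower tier rest on few reads.

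**Figure D1:**
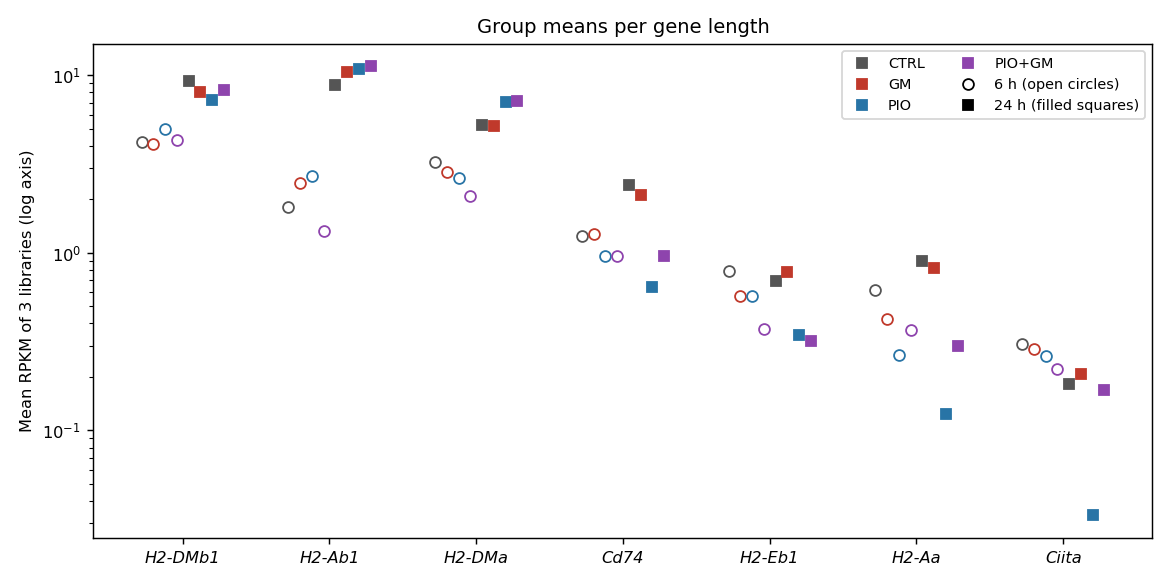
Mean RPKM of the 3 libraries of each group (log axis) for the 7 genes, ordered by their mean over groups. Open circles are groups at 6 h, filled squares groups at 24 h and colors the treatments. H2-Ab1, H2-DMa and H2-DMb1 lie above the other genes in every 24 h group, and the lowest mean of all is Ciita in PIO at 24 h (0.0332 RPKM).

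In CTRL at 6 h, the order was H2-DMb1 (4.22 ± 0.154 RPKM, SD, n = 3), H2-DMa (3.26 ± 0.85), H2-Ab1 (1.82 ± 1.12), Cd74 (1.25 ± 0.601), H2-Eb1 (0.785 ± 0.366), H2-Aa (0.62 ± 0.0808) and Ciita (0.305 ± 0.0547). The intervals of 1 SD around the means overlapped between all neighbours in this order except H2-Aa and Ciita. In CTRL at 24 h, H2-DMb1 (9.29 ± 1.3) and H2-Ab1 (8.74 ± 2.43) did not differ beyond their SDs. H2-DMa (5.26 ± 0.998) followed, apart from both its neighbours by more than the SDs. Cd74 (2.41 ± 1.82), H2-Aa (0.903 ± 0.16) and H2-Eb1 (0.692 ± 0.281) each overlapped with the next within their SDs. Ciita (0.182 ± 0.0142) was the lowest in both.

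The exons of H2-DMa share 360 bases, 10.4% of its exon length, with Brd2 on the opposite strand, and those of Ciita share 3.45% with Dexi on the opposite strand. The use of the strand in counting is not given in the sources used here, so reads in those parts cannot be told apart. Brd2, a chromatin reader, had 1910 to 4768 counts per library. Of the 76-base windows of H2-DMb1 transcripts, 18.9% also occur in H2-DMb2, which had 0 to 8 counts. H2-DMb1 was the only member with shared windows. The coding transcripts of all others, H2-DMa and Ciita included, had 0 in common with another gene on either strand.

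The β chain gene H2-Ab1 and its α chain partner H2-Aa differed in level at 24 h. In CTRL at 24 h H2-Ab1 had 9.68 times the mean RPKM of H2-Aa, in GM 12.7 times, in PIO + GM 37.5 times and in PIO 87.3 times. At 6 h the ratio of mean RPKM was 2.93 in CTRL, 5.82 in GM, 10.2 in PIO and 3.65 in PIO + GM. The ratio in PIO at 6 h rests on 10 counts of H2-Aa, and its single libraries ran from 3.29 to 16.8 times, the highest being replicate 3 with 94 of the 125 counts of H2-Ab1. The ratio in PIO at 24 h rests on 6 counts of H2-Aa in the 3 libraries together, against 578 of H2-Ab1, and that in PIO + GM at 24 h on 12, with 1 library at 0. Single libraries of GM at 24 h ran from 7.41 to 32.1 times, the lowest being replicate 2 with 26 of the 38 counts of H2-Aa. H2-Ab1 had the higher mean RPKM of the pair in every group.

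The first question was whether the genes differed with gentamicin or pioglitazone at 6 h. For gentamicin against CTRL, 0 of the 7 genes passed, where 0.0% of all tested genes were called by edgeR's quasi-likelihood test at an adjusted p of 0.05. Of all genes, 243 had an unadjusted p under 0.05, and none was a member, while DESeq2 called 0 genes. The log2 fold changes ran from -0.51 (H2-Aa) to 0.45 (H2-Ab1), with a median of -0.085 against -0.0014 over all genes. H2-Ab1 had 0.882, 2.08 and 3.54 CPM in CTRL and 1.01, 1.94 and 5.85 in GM, so that 1 GM library was high and the groups overlapped. Leaving it out turned the difference from 0.45 to -0.55 on the log2 scale. In 7 of the 7 genes the libraries of the 2 groups overlapped, where 3.14% of tested genes were higher and 2.08% lower in GM without overlap.

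For pioglitazone against CTRL at 6 h, 0 of the 7 genes passed, with 0.337% of all tested genes called. H2-DMb1 had 6.14, 6.44 and 6.49 CPM in PIO and 5.2, 5.47 and 5.59 in CTRL. Every PIO library was thus above every CTRL library, as was the case for 8.69% of tested genes, with a log2 fold change of 0.23 (SE 0.25, adjusted p = 0.69 by edgeR). H2-Aa had 0.175, 0.318 and 0.362 CPM in PIO and 0.563, 0.706 and 0.719 in CTRL. Here every PIO library was below every CTRL library, as for 6.73% of tested genes, but on 10 against 24 counts in all. Its log2 fold change was -1.18 (SE 0.74, adjusted p = 0.463). The other 5 genes overlapped, with log2 fold changes from -0.48 (H2-Eb1) to 0.61 (H2-Ab1). H2-Ab1 again had a single high library in PIO, with 6.8 CPM against 1.165 and 1.75, and without it the difference was -0.56. Without PIO replicate 2, the library of this group that stood apart by GC content, the log2 fold changes were -1.24 for H2-Aa, 0.25 for H2-DMb1, 0.99 for H2-Ab1 and -0.055 for H2-DMa, none of which passed.

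For PIO + GM against GM at 6 h, 0 of the 7 genes passed, with 1.32% of all tested genes called. Of the members, 6 were lower in PIO + GM and only H2-DMb1 was higher (0.066, SE 0.25). The most negative log2 fold change was that of H2-Ab1 (-0.91, SE 0.65, adjusted p = 0.379), whose libraries had 1.28, 1.62 and 1.86 CPM in PIO + GM. That group lay inside the range of GM, and 0 of the 7 genes were without overlap, against 11.6% of tested genes higher and 11.4% lower in that way. Without the high GM library the difference of H2-Ab1 was 0.097. Without the 3 libraries that stood apart by GC content, 1 PIO + GM library was left, and against it Cd74 went from -0.36 to 0.34, Ciita from -0.37 to 0.35 and H2-DMb1 from 0.066 to -0.43. A single library gives no spread of its own, so these values only show that the signs rest on the libraries left out.

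**Figure D2:**
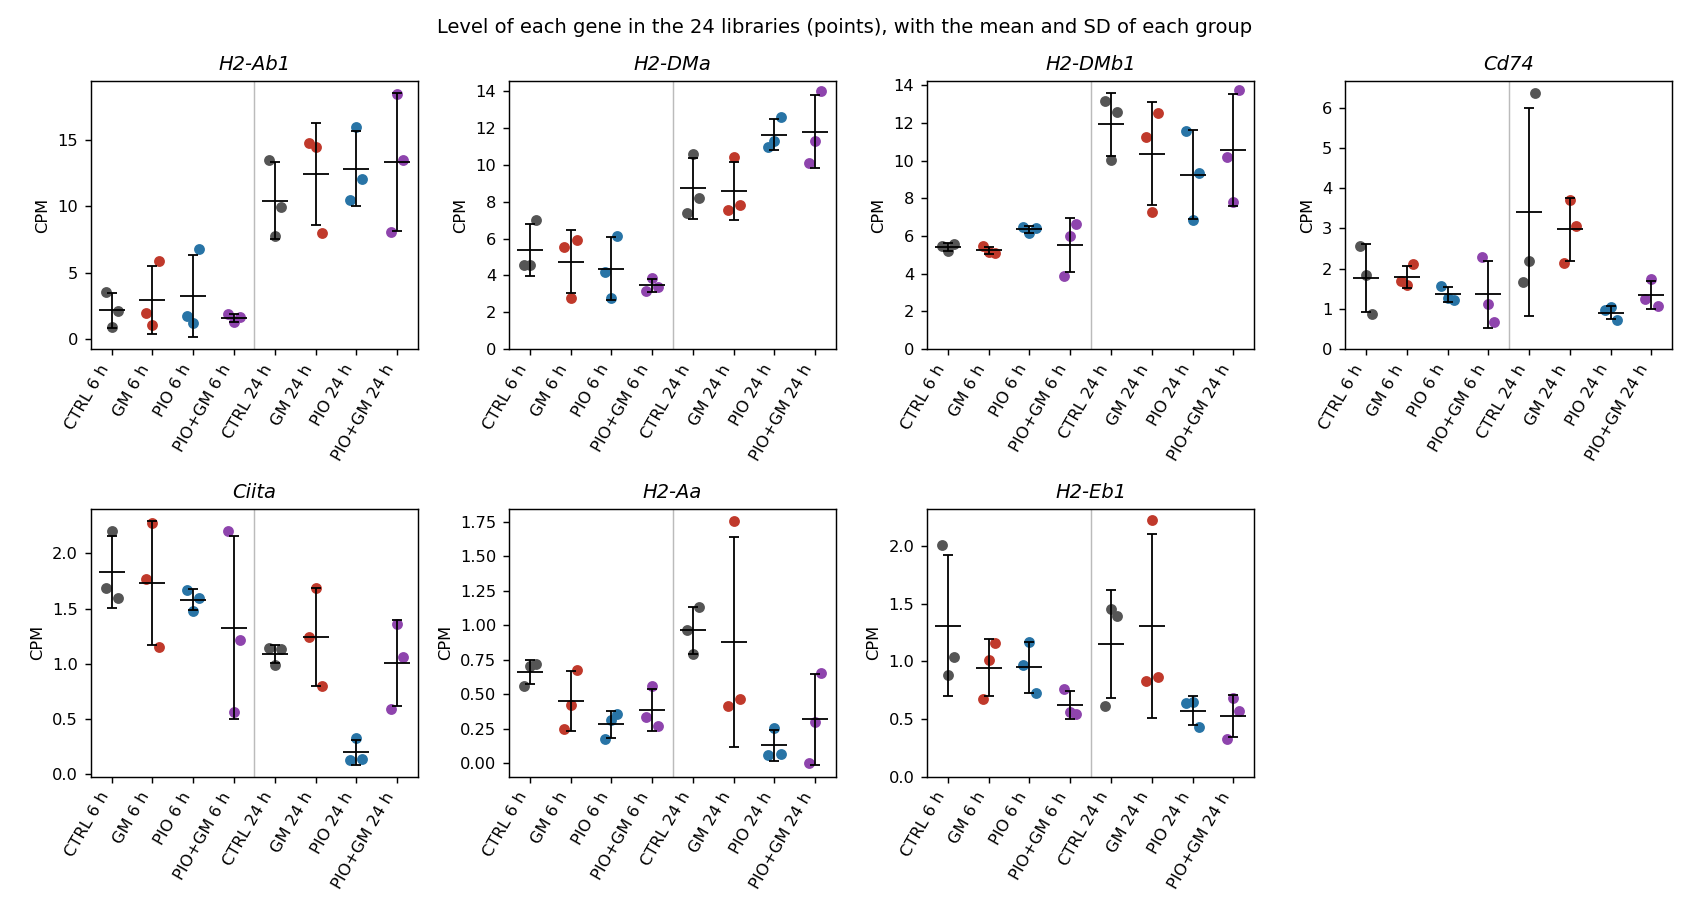
CPM (vertical axes, each including 0) of the 7 genes in the 24 libraries. Points are libraries, black dashes and bars the mean and SD of the 3 libraries of a group, and the gray line separates 6 h from 24 h. H2-Ab1, H2-DMa and H2-DMb1 have higher group means at 24 h in all 4 treatments, whereas Ciita is lowest in the 3 PIO libraries at 24 h.

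At 24 h the question was whether pioglitazone changed the genes in the presence of gentamicin. For PIO + GM against GM, 0 of the 7 genes passed, with 0.11% of all tested genes called. In 3 of them, H2-Eb1, Cd74 and H2-Aa, the unadjusted p was under 0.05, as it was for 1219 of all tested genes. H2-Eb1 had 0.331, 0.572 and 0.682 CPM in PIO + GM and 0.827, 0.868 and 2.23 in GM, without overlap. Its log2 fold change was -1.32 (SE 0.45, adjusted p = 0.427), with an interval from -2.27 to -0.37.

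Cd74 had 1.06, 1.26 and 1.74 CPM in PIO + GM and 2.15, 3.07 and 3.72 in GM. These groups did not overlap either, as for 8.57% of tested genes that were lower in PIO + GM. The log2 fold change of Cd74 was -1.14 (SE 0.46, adjusted p = 0.543). H2-Aa had 0, 0.303 and 0.654 CPM in PIO + GM and 0.413, 0.467 and 1.76 in GM, which overlapped, and a log2 fold change of -1.52 (SE 0.68, adjusted p = 0.629). None of the 3 passed adjustment, here or in any of the alternatives tried for them. GM replicate 2, the highest of the 3 GM libraries for each of these genes, carried much of the size of 2 of them. Without it the log2 fold change was -0.52 for H2-Aa, -0.69 for H2-Eb1 and -0.95 for Cd74.

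The other 4 genes had an unadjusted p above 0.05 and overlapped, where 9.83% of tested genes were higher in PIO + GM without overlap. Ciita had 0.596, 1.06 and 1.36 CPM in PIO + GM and 0.801, 1.24 and 1.69 in GM, with a log2 fold change of -0.31 (95% interval -1.19 to 0.57). H2-Ab1 differed by 0.1 (-1.03 to 1.23), H2-DMb1 by 0.029 (-0.46 to 0.52) and H2-DMa by 0.46 (-0.11 to 1.03). The median over the 7 members was -0.31, and that over all genes 0.00027. The change of this difference from 6 to 24 h was tested as an interaction and passed the threshold for 0 of the 7 genes, with 0.0% of all genes called. Of all genes, 663 had an unadjusted p under 0.05 and DESeq2 called 1. H2-DMa was the member with an unadjusted p under 0.05 (0.92, SE 0.4, adjusted p = 0.843), going from -0.46 at 6 h to 0.46 at 24 h. Without the 3 libraries that stood apart by GC content it was 1.06, with the GC trend removed 0.62, and neither passed.

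Pioglitazone alone against CTRL at 24 h is the contrast in which members had been named, and its values are a description. Over all genes 0.153% passed the threshold in this contrast. Ciita had 2, 2 and 5 counts in the PIO libraries and 13, 13 and 15 in CTRL, which is 0.129, 0.143 and 0.325 CPM against 0.991, 1.13 and 1.14. The 3 PIO libraries were the lowest of all 24 libraries, of which the next had 0.562 CPM. In the order of replicates, the PIO libraries had a count in 18164, 18587 and 19272 genes. The CTRL libraries had one in 20772, 18592 and 21059. The part of this in the low counts of single genes was not tested. The log2 fold change of Ciita was -2.38 (SE 0.52).

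Cd74 had 0.715, 0.964 and 1.04 CPM in PIO and 1.67, 2.18 and 6.37 in CTRL. One CTRL library was far above the others, but even the lowest was above all PIO libraries, and the log2 fold change was -1.89 (SE 0.48). H2-Aa had 1, 1 and 4 counts in PIO and 11, 12 and 13 in CTRL, with a log2 fold change of -2.76 (SE 0.76). In these 3 genes all PIO libraries were below all CTRL libraries, as in 10.7% of tested genes. H2-Eb1 overlapped, with 0.429, 0.643 and 0.651 CPM in PIO and 0.615, 1.4 and 1.45 in CTRL, and differed by -1 (SE 0.45).

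Of the upper tier, H2-DMa and H2-Ab1 were higher in PIO and H2-DMb1 was lower. H2-DMa had 11, 11.3 and 12.6 CPM in PIO and 7.38, 8.21 and 10.6 in CTRL, so that all PIO libraries were above CTRL, as in 11.7% of tested genes (log2 fold change 0.41, SE 0.27). H2-Ab1 had 10.5, 12.1 and 16 CPM in PIO and 7.8, 9.95 and 13.5 in CTRL (0.3, SE 0.54). H2-DMb1 had 6.83, 9.37 and 11.6 CPM in PIO and 10, 12.6 and 13.2 in CTRL (-0.36, SE 0.24), and both of these genes overlapped between the groups. The median over the 7 genes was -1, against -0.0096 over all genes, and it stood for members with log2 fold changes from -2.76 to 0.41.

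The other described comparisons at 24 h share the CTRL or the PIO libraries with that contrast and are given side by side. Gentamicin against CTRL differed by -0.2 (H2-DMb1) to 0.26 (H2-Ab1), and all 7 genes overlapped, where 2.6% of tested genes were higher and 3.06% lower without overlap. Ciita was -0.12 (SE 0.43) in PIO + GM against CTRL and 2.27 (SE 0.52) in PIO + GM against PIO. Its libraries with both drugs, at 0.596 to 1.36 CPM, thus spanned the CTRL range and lay above all PIO libraries. Cd74 was -1.32 (SE 0.46) against CTRL and 0.57 (SE 0.5) against PIO. In PIO + GM against PIO, these 2 genes were the members without overlap, as were 4.1% of tested genes that were higher and 4.72% that were lower.

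Cd74 in PIO + GM was thus nearer to PIO than to CTRL, and so was H2-Eb1. H2-Eb1 differed from CTRL by -1.14 (SE 0.46) and from PIO by -0.14 (SE 0.49). H2-Aa differed from CTRL by -1.62 (SE 0.69), without overlap, as in 10.2% of tested genes that were lower, and from PIO by 1.13 (SE 0.87). These distances of H2-Aa lie within their SEs of each other and rest on 12 counts in PIO + GM and 6 in PIO. In PIO against GM, Cd74 (-1.71), Ciita (-2.58), H2-Aa (-2.65) and H2-Eb1 (-1.18) were lower without overlap, as were 10.1% of tested genes. H2-DMa was higher by 0.44 without overlap, as were 11.4%.

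**Figure D3:**
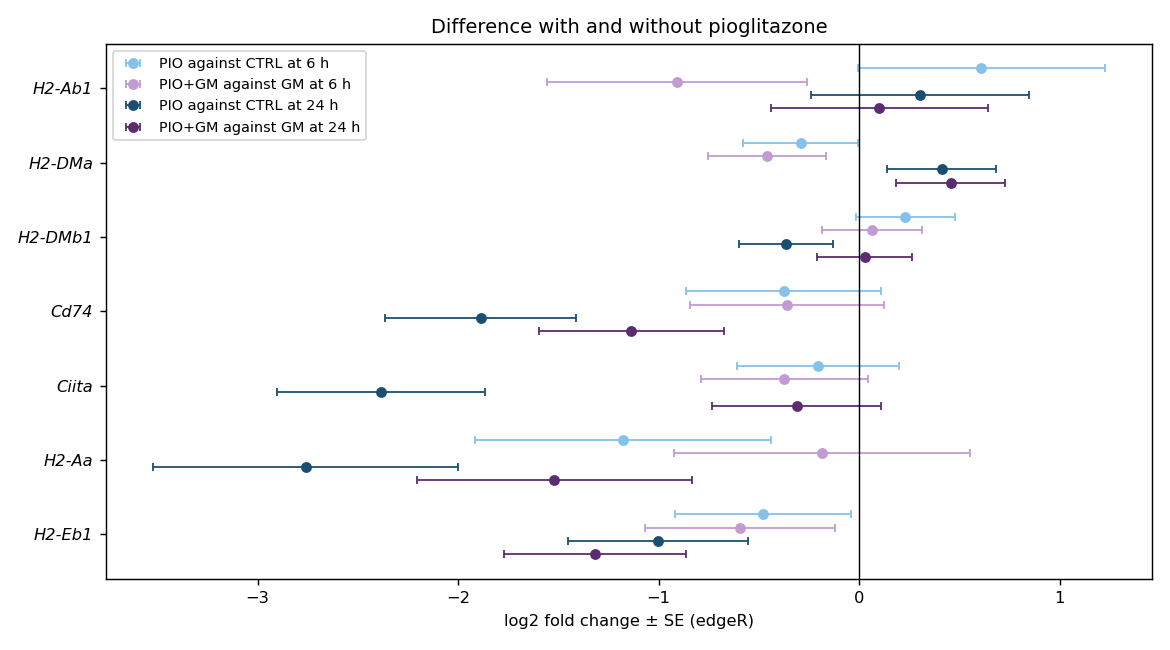
Log2 fold change ± SE (horizontal axis, edgeR) of the 7 genes with against without pioglitazone, in the absence (blue) and presence (purple) of gentamicin at 6 h (light) and 24 h (dark). At 24 h the points of Cd74, H2-Aa and H2-Eb1 lie at -1 or lower in both, and Ciita at -2.38 without and -0.31 with gentamicin.

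Summed over 16 genes, macrophage markers overlapped between treatments at 24 h. Their sum was 206 to 261 CPM in CTRL, 193 to 356 in GM, 150 to 355 in PIO and 148 to 362 in PIO + GM, and all 16 were detected in every library. Means of single markers went both ways. Adgre1 (14.35 against 20.51 CPM), Aif1 (0.88 against 1.87) and Ptprc (4.5 against 6) were lower in PIO than in CTRL. Csf1r (30.4 against 22), Cx3cr1 (16 against 11) and Lyz2 (42.4 against 37.3) were higher. The 5 B cell genes summed to 0.661 to 1.06 CPM in CTRL and 0.386 to 0.651 in PIO at 24 h, where Ciita was also lowest, and to 1.44 to 3.35 in PIO + GM. Of these, Ms4a1 and Pax5 had at most 5 counts in any library. The 5 T cell genes summed to 2.18 to 2.53 CPM in CTRL and 0.501 to 1.89 in PIO at 24 h. Most of that sum was Cd4 (mean 1.49 CPM in CTRL and 0.787 in PIO). Cd3d, Cd3e and Cd3g had medians of 0.5 to 1.5 counts, so both sums rest on few reads. The dendritic cell genes Xcr1, Clec9a, Cd209a and Ccr7 had medians of 1 to 3 counts and were too low to be tested, and all 8 dendritic cell genes summed to 17 to 20.5 CPM in CTRL and 17 to 21.3 in PIO. Most of that sum was Zbtb46, with a mean of 15.9 CPM in CTRL and 16.8 in PIO, whereas the other 7 dendritic cell genes each had a lower mean in PIO, such as Itgax (0.223 against 0.518 CPM). The part of these cells in the difference was not tested.

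The last question was how the genes changed with time in culture, from 6 to 24 h. In GM, H2-Ab1, H2-DMa and H2-DMb1 rose, 3 of the 7 genes, where 12.5% of all tested genes rose and 24.2% were called in either direction. H2-Ab1 had 1.01, 1.94 and 5.85 CPM at 6 h and 8.01, 14.5 and 14.8 at 24 h. The groups did not overlap, and the log2 fold change was 2.06 (SE 0.58, adjusted p = 0.0148), a 4.16-fold rise. The median log2 fold change of the 7 genes was 0.85 and that of all genes 0.018.

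H2-DMb1 had 5.1, 5.14 and 5.47 CPM at 6 h and 7.3, 11.2 and 12.5 at 24 h in GM, rising 1.98-fold (log2 fold change 0.98, SE 0.24, adjusted p = 0.0063). H2-DMa had 2.78, 5.55 and 5.92 CPM at 6 h and 7.53, 7.81 and 10.4 at 24 h (0.85, SE 0.28, adjusted p = 0.0332). Both H2-M chains thus rose without overlap. With 1 library fewer, H2-Ab1 and H2-DMa kept their direction but not always their call. H2-Ab1 had a log2 fold change of 1.83 (adjusted p = 0.0662) without GM replicate 1 at 6 h and of 1.66 (adjusted p = 0.0817) without GM replicate 2 at 6 h. H2-DMa had 0.58 (adjusted p = 0.18) without that replicate 2 and 0.69 (adjusted p = 0.134) without GM replicate 2 at 24 h. It also lost its call without a filter and with only the libraries compared, and passed in 10 of 14 alternatives. H2-DMb1 passed without each library in turn.

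Of the other genes in GM, Cd74 had 1.6, 1.68 and 2.11 CPM at 6 h and 2.15, 3.07 and 3.72 at 24 h. It was the fourth member without overlap, as were 22.7% of tested genes that were higher, but did not pass the test (0.73, SE 0.45, adjusted p = 0.256). H2-Aa (0.94, SE 0.65), H2-Eb1 (0.46, SE 0.43) and Ciita (-0.47, SE 0.41) overlapped between the times, and 0 members were lower without overlap, against 22.2% of tested genes. Without GM replicate 2 at 24 h, which had the highest H2-Aa and H2-Eb1 of all libraries, these 2 genes were at -0.058 and -0.17.

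In PIO + GM the same 3 genes rose, where 17.6% of all tested genes rose and 34.6% were called. H2-Ab1 had 1.28, 1.62 and 1.86 CPM at 6 h and 8.07, 13.5 and 18.5 at 24 h, rising 8.37-fold (log2 fold change 3.07, SE 0.63, adjusted p = 0.00125). H2-DMa had 3.13, 3.38 and 3.85 CPM at 6 h and 10.1, 11.3 and 14 at 24 h, rising 3.4-fold (1.77, SE 0.29, adjusted p = 0.000212). H2-DMb1 had 3.9, 6.02 and 6.62 CPM at 6 h and 7.8, 10.2 and 13.7 at 24 h, rising 1.93-fold (0.95, SE 0.25, adjusted p = 0.00609). These 3 were the members without overlap, as were 22.4% of tested genes that were higher, and they passed without each library of the 2 groups in turn. With only the libraries compared in the fit, H2-DMb1 did not pass (adjusted p = 0.0549 by edgeR).

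Without the 3 libraries that stood apart by GC content, which leaves 1 PIO + GM library at 6 h assumed to vary like the others, the log2 fold changes were 2.84 (H2-Ab1), 1.91 (H2-DMa) and 1.44 (H2-DMb1), all past the threshold. With a GC trend removed from each library they were 2.66, 1.39 and 0.74, also past it. Cd74 (-0.048), Ciita (-0.41), H2-Aa (-0.4) and H2-Eb1 (-0.26) did not pass and overlapped. Brd2, whose exons overlap those of H2-DMa, had log2 fold changes with time of the opposite sign to H2-DMa. They were -0.38 in GM (SE 0.14, adjusted p = 0.0625 by edgeR) and -0.36 in PIO + GM (SE 0.14, adjusted p = 0.0612). At 24 h Brd2 had the same sign as H2-DMa in PIO against CTRL (0.23, SE 0.14) and PIO + GM against GM (0.13, SE 0.14). At 6 h the sign was opposite in both (0.059 and 0.11). Dexi, which overlaps Ciita, was at 0.5 (SE 0.19) with time in GM and 0.75 (SE 0.19) in PIO + GM. The part of these overlaps was not tested.

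CTRL and PIO share libraries with the contrast in which members had been named, so their changes with time are a description. H2-Ab1 was at 2.25 (SE 0.6) in CTRL and 1.95 (SE 0.58) in PIO. H2-DMa was at 0.69 (SE 0.28) and 1.4 (SE 0.28), and H2-DMb1 at 1.14 (SE 0.24) and 0.54 (SE 0.24). All 3 were without overlap in both treatments, with 24.1% of tested genes higher in that way in CTRL and 20.5% in PIO. In CTRL, H2-Aa was also higher without overlap (0.53, SE 0.63) and Ciita lower (-0.75, SE 0.41), as were 22.4% of tested genes. In PIO, Ciita (-2.92, SE 0.51), Cd74 (-0.57, SE 0.5) and H2-Eb1 (-0.7, SE 0.46) were lower without overlap, as were 20.7%.

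**Figure D4:**
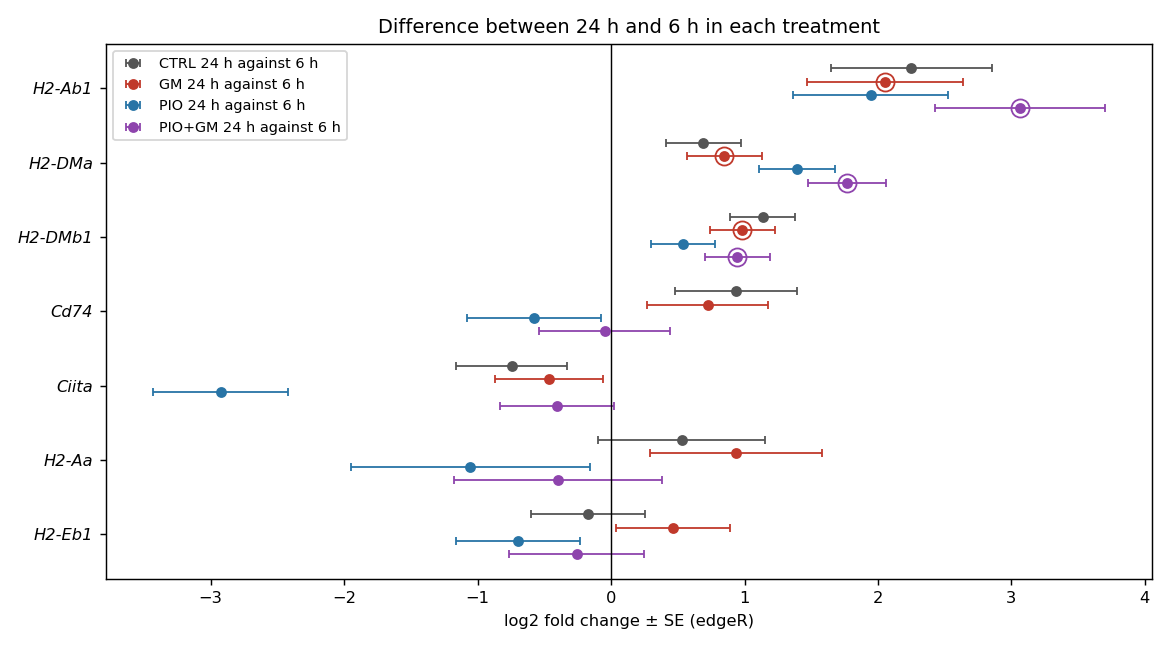
Log2 fold change ± SE (horizontal axis, edgeR) between 24 and 6 h for the 7 genes in the 4 treatments. Rings mark the 3 genes past the threshold in GM and in PIO + GM, the treatments in which time was tested. H2-Ab1, H2-DMa and H2-DMb1 lie above 0 in all 4 treatments, while Ciita lies below 0 in all 4.

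Macrophage markers were also compared between the times. In GM their sum was 120 to 210 CPM at 6 h and 193 to 356 at 24 h, and C1qa, a complement component made by macrophages, and Lyz2, a lysozyme, rose, 2 of the 16, a share no larger than the 12.5% of all tested genes that rose. In PIO + GM the sum was 122 to 149 CPM at 6 h and 148 to 362 at 24 h, 5 of 16 rose (C1qa, C1qb, C1qc, Cx3cr1 and Lyz2), beside 17.6% of all tested genes, and Cd163 fell. Without the 3 libraries that stood apart by GC content, which leaves 1 PIO + GM library at 6 h, 0 of the 16 passed, beside 12.6% of all genes that rose, and with the GC trend removed 3 rose (C1qa, Cx3cr1 and Lyz2) and Cd163 fell. Over the 24 libraries, the log2 CPM of H2-Ab1 had a Pearson's r of 0.68 with the log2 sum of the macrophage markers, H2-DMa of 0.6 and H2-DMb1 of 0.34. For Cd74, H2-Aa, H2-Eb1 and Ciita it was 0.36, 0.22, 0.13 and -0.24. After the mean of each group was subtracted, r was 0.21, 0.06 and -0.69 for the first 3 genes and 0.36, 0.40, 0.36 and 0.31 for the other 4. The points share their libraries, depth and time in culture, and the part of macrophages in the rise was not tested. Of the 4 dendritic cell genes tested, 0 rose, Flt3 fell in both treatments and Batf3 in PIO + GM, where 11.7% of all tested genes fell in GM and 17.0% in PIO + GM, and 0 of the 2 B cell and 0 of the 2 T cell genes tested passed in either. Of the hair cell genes Slc17a8 fell in both treatments, of the supporting cell genes Gjb2 rose in PIO + GM, and 0 of 3 endothelial genes passed.

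Members that moved together fell into 2 sets, which were drawn after the values were seen. The 24 libraries include PIO and CTRL at 24 h, on which Cd74 and Ciita had been selected. The values of r are therefore not independent of that selection, which holds for all correlations over the 24 libraries given here. Over the 24 libraries, r of log2 CPM was 0.69 to 0.88 among H2-Ab1, H2-DMa and H2-DMb1 and 0.41 to 0.68 among Cd74, Ciita, H2-Aa and H2-Eb1. Between the sets it was -0.57 to 0.18. Ciita, the coactivator, had r of 0.5 with H2-Aa and 0.48 with H2-Eb1, but of -0.48 with H2-Ab1 and -0.57 with H2-DMa. After subtraction of the group means, r was -0.15 to 0.57 within the first set, 0.16 to 0.57 within the second and -0.58 to 0.34 between them. The division thus rested mainly on the means of the groups, and the I-A chains H2-Aa and H2-Ab1, which pair in the protein, lay in different sets (r = 0.04).

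**Figure D5:**
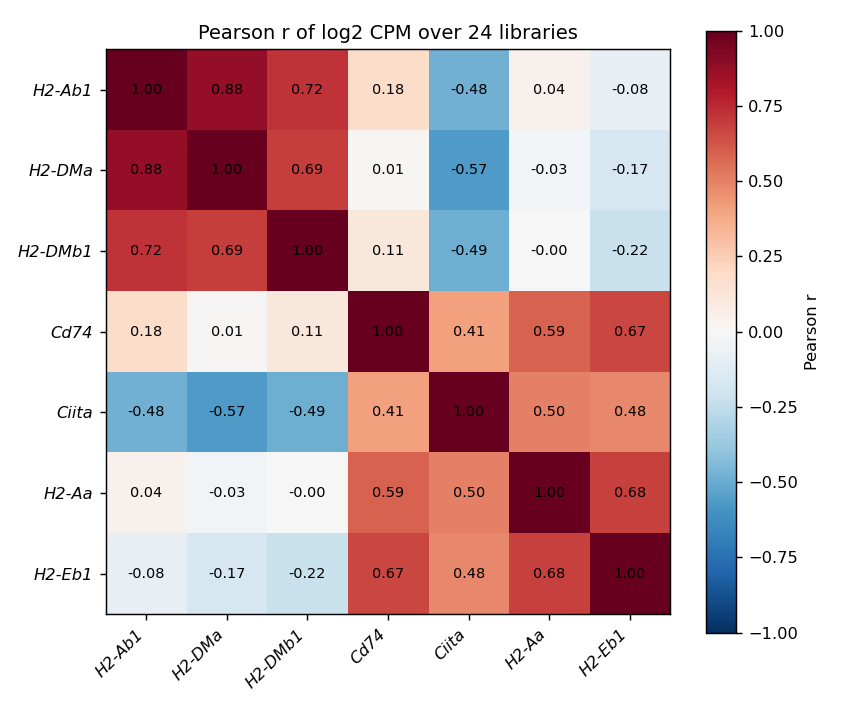
Pearson's r of log2 CPM between the 7 genes over the 24 libraries, with color from -1 (blue) to 1 (red). H2-Ab1, H2-DMa and H2-DMb1 form one block with r of at least 0.69, and Cd74, Ciita, H2-Aa and H2-Eb1 another with r of at least 0.41.

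The genes most like the members, by Pearson's r of log2 CPM with the mean of the standardized members over the 24 libraries, were Actn3 (0.867), Gsdmd (0.851), Shisa7 (0.81), Pcolce (0.808), Siglec1 (0.802), Nos2 (0.802), Cracr2b (0.801), Tmem119 (0.8) and Mybpc2 (0.788), 9 of the first 10. Siglec1 is a macrophage lectin, Nos2 the inducible nitric oxide synthase and Gsdmd a pore-forming protein, while Actn3 and Mybpc2 are muscle genes. The members themselves had r of 0.222 (Ciita) to 0.769 (Cd74) with that mean. With deviations from the group means in place of the values, r of the 10 genes was 0.374 to 0.715, and 1 of the 10, Gsdmd, was again among the first 10.

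Of 31 other genes of the pathway, 24 could be tested. The 5 other class II chain genes H2-Oa, H2-Ob, H2-DMb2, H2-Eb2 and H2-Ea, as well as Ifng and the costimulatory ligand Cd80, were below the filter. H2-Ea had 0 counts in 18 of the 24 libraries, and Ifng had 0 to 5 counts, with 0 in 10 libraries. In none of the tested comparisons between treatments, nor in the interaction, did a pathway gene pass the threshold (0 of 24). Of all tested genes, 0.0% to 1.32% passed in these comparisons. The factors named above were measured at higher counts than the members. The RFX subunits Rfx5, Rfxap and Rfxank had medians of 40.6, 19 and 28.5 CPM, and Irf1, which acts on the Ciita promoter, of 25.8.

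With time in GM, 3 of the 24 rose and 1 fell, where 12.5% of all tested genes rose and 11.7% fell, so the share that rose was that of all genes. The endosomal proteases Ctsb (0.45, SE 0.11, adjusted p = 0.00731) and Ctsd (0.68, SE 0.13, adjusted p = 0.00121) and the lysosomal thiol reductase Ifi30 (0.75, SE 0.2, adjusted p = 0.0115) rose. The kinase Jak1, which carries the interferon-γ signal, fell by 0.53 on the log2 scale (SE 0.14, adjusted p = 0.0114). Rfx5 was at 0.56 (SE 0.21, adjusted p = 0.0593), and Ctss, the protease that trims Cd74, at 0.88 (SE 0.44, adjusted p = 0.149). The median over the 24 was 0.092, against 0.018 over all genes.

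With time in PIO + GM, 5 of the 24 rose and 6 fell, where 17.6% of all tested genes rose and 17.0% fell. Without the 3 libraries that stood apart by GC content, 4 of 25 rose and 2 fell (12.6% and 13.2% of all genes), and Lgmn, Jak2, Nfya, Nfyb and Creb1 did not pass. With the GC trend removed, 5 of 24 rose and 4 fell (16.5% and 19.0% of all genes), and Jak2 and Creb1 did not pass. With all libraries, Ctsb, Ctsd, Ifi30 and Lgmn, a further endosomal protease, rose with log2 fold changes of 0.6, 0.91, 0.91 and 0.41, and Rfx5 rose by 0.68 (SE 0.21, adjusted p = 0.0194). Jak1 and Jak2 fell, at -0.65 and -0.49, as did Nfya (-0.36), Nfyb (-0.52) and Creb1 (-0.39). Thus 4 of 6 genes of endosomal processing rose and 0 fell, whereas 0 of 7 tested genes of interferon-γ signalling rose. Rfxap, Rfxank and Irf1 did not pass in either treatment. Cd86, a costimulatory ligand, was at -1.07 (SE 0.59, adjusted p = 0.192) in GM and -1.53 (SE 0.61, adjusted p = 0.0591) in PIO + GM.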

How the data were processed

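RNA was measured in 24 libraries of OC explants, 3 for each of 8 groups of treatment and time as the labels give them. The authors made stranded libraries from total RNA, sequenced them as single reads of 76 bases, mapped these with STAR (the submitters' processing notes name build mm10) and deposited raw counts per gene of reads starting within its RefSeq exons, with the gene length used. Filters, the use of the strand and the handling of reads with several matches are not given in the sources used here. The members and gene lists were chosen with earlier results of these data known.

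Of 24454 Entrez identifiers, 24374 were matched to a symbol. The tests were run on the counts with edgeR 4.0.16 under R 4.3.3 (TMM factors between 0.961 and 1.04, filterByExpr, quasi-likelihood F-test). One mean per group was fitted to all libraries, the common dispersion corresponding to a biological coefficient of variation near 0.225. Benjamini-Hochberg adjustment covered all 16317 genes, and the threshold was 0.05. The standard error is the log2 fold change divided by the square root of F, and intervals are 95% t intervals from it. CPM and RPKM used TMM-scaled totals, and log2 CPM a prior count of 2. DESeq2 1.42.0, limma 3.58.1, Python 3.11, pandas 2.3.3, numpy 2.4.6 and matplotlib 3.10.9 were also used. The procedure was tested on simulated data. Replicates of one group differed beyond sampling noise (chi-square per degree of freedom 10.7 to 84.9).

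Named were all members, 8 fixed pathway genes with any others past the threshold or under the filter, and the 10 genes most like the members. Some genes that this rule names are not reported here. Brd2, Dexi and the 2 sets of members were added after their values were seen. Promoters and GRCm38 positions come from RefSeq and GENCODE. Alternatives were a replicate block, no TMM factors, DESeq2, no filter, at least 10 counts in every library, only the libraries compared, each library left out, and a prior count of 0.5. A GC correction and the omission of 3 libraries by their GC trend were chosen after seeing the data. The authors' qPCR, protein and hair cell data were not used here.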

Additional observations from a re-analysis of the deposited data

How the results depend on the processing

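The counts of members past the threshold in the 4 comparisons between treatments and in the interaction stayed at 0 under every alternative run. In GM from 6 to 24 h the count was 1 to 3 as single libraries were left out, and 2 without a filter or with only the libraries compared, where H2-DMa was lost (adjusted p = 0.05 and 0.0788). In PIO + GM it was 2 with only the libraries compared (H2-DMb1, adjusted p = 0.0549) and 3 otherwise. Over all alternatives, H2-DMb1 passed in GM in 14 of 14, H2-Ab1 in 12 and H2-DMa in 10. With at least 10 counts in every library, 3 members were left (H2-Ab1, H2-DMa, H2-DMb1), and the median log2 fold change at 24 h went to 0.33 for PIO against CTRL, 0.40 for PIO + GM against CTRL and 0.049 for PIO against GM, since Cd74, Ciita, H2-Aa and H2-Eb1, all lower in these contrasts, were no longer among the members tested. With single libraries left out, the median ran from -1.29 to -0.79 for PIO against CTRL, from -1.41 to -0.55 for PIO against GM and from -0.19 to 0.22 for GM against CTRL, all at 24 h.

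Log2 fold changes that did not pass changed sign as follows when single libraries were left out. For GM against CTRL at 6 h the ranges were -0.29 to 0.42 (Cd74), -0.32 to 0.15 (Ciita), -0.55 to 1.01 (H2-Ab1) and -0.37 to 0.096 (H2-DMa), and for PIO against CTRL at 6 h -0.71 to 0.00021 (Cd74) and -0.56 to 1.157 (H2-Ab1). For PIO + GM against GM at 6 h they were -1.03 to 0.015 (Ciita), -0.56 to 0.25 (H2-Aa), -1.32 to 0.097 (H2-Ab1) and -0.078 to 0.26 (H2-DMb1), and at 24 h -0.21 to 0.36 (H2-Ab1) and -0.20 to 0.21 (H2-DMb1). From 6 to 24 h they were -0.058 to 1.38 (H2-Aa) and -0.17 to 0.70 (H2-Eb1) in GM, and -0.32 to 0.55 (Cd74), -0.79 to 0.25 (Ciita), -1.43 to 0.24 (H2-Aa) and -0.48 to 0.0083 (H2-Eb1) in PIO + GM. For the interaction they were -0.33 to 0.71 (Ciita) and -0.26 to 0.15 (H2-DMb1). Without the 3 libraries of low GC trend, PIO + GM against GM at 6 h was 0.34 for Cd74, 0.35 for Ciita and -0.43 for H2-DMb1, and the interaction -0.66 for Ciita and 0.46 for H2-DMb1. With the GC trend removed, the interaction of Ciita was -0.14. The cause of these changes was not tested.

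Libraries with the same replicate number deviated from their group means with a mean correlation of 0.113 at 6 h (-0.305 to 0.684) and 0.38 at 24 h (-0.0245 to 0.723), against -0.0547 and -0.182 for libraries of different number. At 24 h 15 of 18 pairs were over 0.1, and all 3 were for CTRL with GM, CTRL with PIO and PIO with PIO + GM, which are described without a test. No tested comparison had all its pairs over 0.1, so the numbers were not taken to pair the samples. With a replicate block, 0 members passed in the comparisons between treatments and in the interaction, and 3 passed from 6 to 24 h in GM and 3 in PIO + GM, as without it. The block gave 371 genes in place of 55 for PIO against CTRL at 6 h, 1990 in place of 216 and 98 in place of 18 for PIO + GM against GM at 6 and 24 h. In that order, DESeq2 gave 383, 1320 and 102, only the libraries compared 0, 0 and 40, the GC correction 222, 92 and 44, and omission of the 3 libraries 179, 0 and 45. For the first 2 of these, no filter gave 22 and 75, and at least 10 counts 95 and 350. With single libraries left out the counts were 6 to 120, 4 to 4053 (without PIO + GM replicate 1) and 1 to 8. A prior count of 0.5 moved no mean log2 CPM by more than the spread between replicates. At 3 libraries and medians of 5 to 19 counts, changes of Cd74, Ciita, H2-Aa and H2-Eb1 are measured with large standard errors on the log2 scale, for example 0.898 for H2-Aa in PIO from 6 to 24 h and 1.02 for its interaction.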

Other observations

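The genes closest to single members, by Pearson's r of log2 CPM over the 24 libraries, differed between members and were looked up after the values were seen. For Cd74 they were Serping1 (0.84) and Cfb (0.83), an inhibitor and a factor of complement, and Ly6a (0.82). For Ciita they were Esr1 (0.83), the estrogen receptor, and Clec5a (0.82) and Gpr84 (0.82), receptors of myeloid cells. For H2-Ab1 they were Bsg (0.97), Mir675 (0.97) and Porcn (0.96), for H2-DMa Inha (0.95), Tctn2 (0.94) and Fam71e1 (0.94), and for H2-DMb1 Paqr8 (0.95), Slc44a3 (0.94) and Galm (0.94). For H2-Aa they were Cbr2 (0.77), Col22a1 (0.76) and Chrna4 (0.75), and for H2-Eb1 Wfdc1 (0.72), Stra6 (0.72) and Necab2 (0.71). Time in culture, depth and library are shared by all of these correlations.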
